A study of Mus musculus with 10 samples.

Results

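Chemokines are small secreted or membrane-bound proteins that draw cells along a gradient, and they are named CC, CXC or CX3C after the spacing of their first cysteines. Each acts through 7-pass receptors on the responding cell, and a group of atypical receptors binds chemokines without the usual G-protein signal and can remove them from the surroundings. In bone, cells of the osteoblast lineage are a source, among others, of Cxcl12, which holds blood stem and progenitor cells in place through Cxcr4. The same lineage is a source of monocyte attractants that act on osteoclast precursors. The 10 chemokines described here are the rows of the deposited gene tables whose Ensembl identifier maps to Ccl2, Ccl5, Ccl7, Ccl9, Cxcl1, Cxcl5, Cxcl10, Cxcl12, Cxcl16 and Cx3cl1, out of 40620 genes. All 10 were found, and 7 of them passed the filter on low counts and were tested.

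RNA was sequenced from MC3T3-E1 cells, a purchased subclone of a mouse calvarial pre-osteoblast line, at 5 stages with 2 replicates (A and B) per stage, 10 samples in all. Subconfluent and confluent cells (day 0) were in growth medium, αMEM with serum. Cells of 24 h, 14 d and 21 d were cultured from confluence on in medium with ascorbic acid and β-glycerophosphate, the usual additions for osteogenic culture. No culture was kept for 14 d or 21 d without these additions, so time in culture, cell density and medium cannot be told apart from the confluent stage on. Nothing in the labels says whether replicates A and B were separate cultures, so the tests measure only the spread between these samples.

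Total counts on genes were between 44736156 and 162939333 per sample. Levels are given as RPKM, the authors' read counts scaled to gene length and to the reads of the sample, which allows genes of different length to be compared. RPKM summed over all genes was 1051933 in subconfluent A, 1561683 in 24 h A and 1139980 in 24 h B. The fits apply a further scaling between samples (TMM), so stage differences in RPKM can differ from the fitted changes. Changes between stages are log2 fold changes from the counts, fitted in edgeR with its quasi-likelihood test over all 20808 genes tested, with their standard error (SE). A chemokine is said to have risen or fallen where the change exceeded 2-fold at an adjusted p-value under 0.05. The replicates at 24 h differed more than those of the other stages, with an SD of the log2 ratio of A to B of 0.69 over 16133 genes, against 0.29 to 0.33 elsewhere. The libraries also differ in their index sequences, which are shared by the 3 early stages up to 24 h and are different for 14 d and 21 d. A change from an early to a late stage cannot be told apart from a difference between these sets of libraries.

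Markers of other cells that make or answer chemokines were looked up in the same samples. Of 10 blood-cell markers, Ptprc and Cd3e, which define leukocytes and T cells, had 0 counts in all 10 samples, and Adgre1 of macrophages had 1 count in 1 sample. Other markers of this list were present in all 10 samples, with Lyz2 at 9.81 to 16.1 RPKM, Itgam at 5.00 to 9.86 RPKM and Csf1r at 1.83 to 3.19 RPKM. Without Tyrobp the list summed to 20.5 to 22.0 RPKM in the subconfluent samples and to 27.3 to 29.0 RPKM in those of 21 d. Tyrobp, which encodes a signalling adaptor of myeloid cells, was at 179 RPKM in confluent B, 214 RPKM in 14 d B and 256 RPKM in 21 d A and at no more than 0.842 RPKM in the other 7 samples, and with it the list was at 22.8 to 206 RPKM in confluent cells, 27.7 to 242 RPKM at 14 d and 29.2 to 284 RPKM at 21 d.  From subconfluent cells to 21 d, 1 of the 7 blood-cell markers tested rose, the transcription factor gene Spi1, from 1 and 0 counts to 8 and 17 counts. The 5 endothelial markers summed to at most 0.107 RPKM in any sample, and 1 of the 2 tested (Tek) rose from 1 count in each subconfluent sample to 9 and 15 counts. Of the 7 osteoblast markers 5 rose in 21 d against subconfluent cells and 0 fell. Of all genes tested, 16.3% rose in that comparison and 11.3% fell. The part that any of these lists has in the chemokine changes was not tested.

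The genes lie on 4 chromosomes of GRCm38 (GENCODE vM21). On chromosome 11 Ccl2 (82035571-82037453) and Ccl7 (82045712-82047525) are neighbours on the plus strand, 8.259 kb apart. Ccl5 (83525778-83530518) and Ccl9 (83572919-83578636) lie 42.4 kb apart on the minus strand, 1478 kb farther along. Cxcl16 is on the same chromosome at 70453983-70459984. Cxcl5 (90759360-90761624), Cxcl1 (90891241-90893115) and Cxcl10 (92346638-92348889) are on chromosome 5, Cxcl12 (117168535-117181367) is on chromosome 6 and Cx3cl1 (94772009-94782427) on chromosome 8. Exons of Cxcl10 share 133 bases with Art3 and exons of Cxcl16 share 552 of their 3021 bases with Zmynd15, each on the opposite strand. Strand use in the counting is not given in the sources used here, so reads in these stretches cannot be assigned to one gene. The mean count of Zmynd15 was 6.7 against 73.5 for Cxcl16, and that of Art3 was 10.8 against 6.5 for Cxcl10.

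Promoter sequences (RefSeq, GRCm38.p6, 250 bases before to 50 after the start) were found for 5 of the 10 genes, Ccl9, Cxcl1, Cxcl10, Cxcl12 and Cx3cl1. They were searched on both strands for 4 motifs of the factors that carry inflammatory signals to chemokine genes, the kappaB motif of NF-kB, the interferon response element ISRE (TTTC, NN, TTTC), the GAS motif of STAT factors (TTCNNNGAA) and the AP-1 motif (TGANTCA). Of 32851 promoters of this length 4.51% hold a kappaB match, 3.44% an ISRE match, 8.30% a GAS match and 7.81% an AP-1 match. Shown are the bases before the start of the most abundant chemokine, of Ccl9, whose level rose with culture, and of both inflammatory CXC genes with a sequence, which were at or near 0 counts. Capitals mark motif matches.
Ccl9 (chr11:83578637-83578756, minus strand): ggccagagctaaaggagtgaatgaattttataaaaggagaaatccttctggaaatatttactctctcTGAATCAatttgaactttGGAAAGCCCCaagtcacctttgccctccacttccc
Cxcl1 (chr5:90891125-90891240, plus strand): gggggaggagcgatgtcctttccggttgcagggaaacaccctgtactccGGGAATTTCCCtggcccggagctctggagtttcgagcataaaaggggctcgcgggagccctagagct
Cxcl10 (chr5:92348890-92349109, minus strand): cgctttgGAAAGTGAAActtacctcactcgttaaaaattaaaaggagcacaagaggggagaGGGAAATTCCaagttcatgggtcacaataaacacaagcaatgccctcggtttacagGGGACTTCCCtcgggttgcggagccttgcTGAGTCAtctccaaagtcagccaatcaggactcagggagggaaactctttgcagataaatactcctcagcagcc
Cxcl12 (chr6:117168415-117168534, plus strand): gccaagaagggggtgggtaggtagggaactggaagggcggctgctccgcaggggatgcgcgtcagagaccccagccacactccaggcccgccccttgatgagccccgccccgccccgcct
Ccl9 has an AP-1 match at position -53 from the RefSeq start and a kappaB match at -35. Cxcl1 has overlapping kappaB matches at -71 and -70, and the stretch shown for it leaves out the last 4 bases before the RefSeq start. Cxcl10 has kappaB matches at -159 and -103, an ISRE match at -213 and an AP-1 match at -74. The windows of Cxcl12 and Cx3cl1 hold none of these motifs. For Cx3cl1, 171 of the 250 bases before the RefSeq start lie after the GENCODE start, so only 79 bases lie before both. A match is a description of the sequence and not a measured binding site.

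Cxcl12 and Cx3cl1 made up most of the chemokine mRNA at every stage. The 10 chemokines summed to 86.5 ± 1.71 RPKM (SD, n = 2) in subconfluent cells, 53.3 ± 1.83 RPKM in confluent cells, 34.5 ± 2.03 RPKM at 24 h, 43.1 ± 0.421 RPKM at 14 d and 33.0 ± 1.10 RPKM at 21 d. Cxcl12 and Cx3cl1 together held 93.6% of this sum in subconfluent cells, 87.0% in confluent cells, 83.4% at 24 h, 88.5% at 14 d and 82.3% at 21 d. The sum was thus carried by a CXC and a CX3C gene, while the 4 CC genes added between 4.46 and 6.53 RPKM by stage mean. Over the 10 samples the mean level was 29.1 RPKM for Cxcl12, 15.2 RPKM for Cx3cl1, 2.75 RPKM for Ccl2 and 1.12 RPKM for Ccl9. It was 0.704 RPKM for Ccl5, 0.691 RPKM for Ccl7, 0.417 RPKM for Cxcl16 and 0.109 RPKM for Cxcl10. Of the 40602 genes with complete RPKM values, 3893 had a higher mean than Cxcl12 and 6214 a higher mean than Cx3cl1, while 13111 were above Ccl2.

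**Figure D1:**
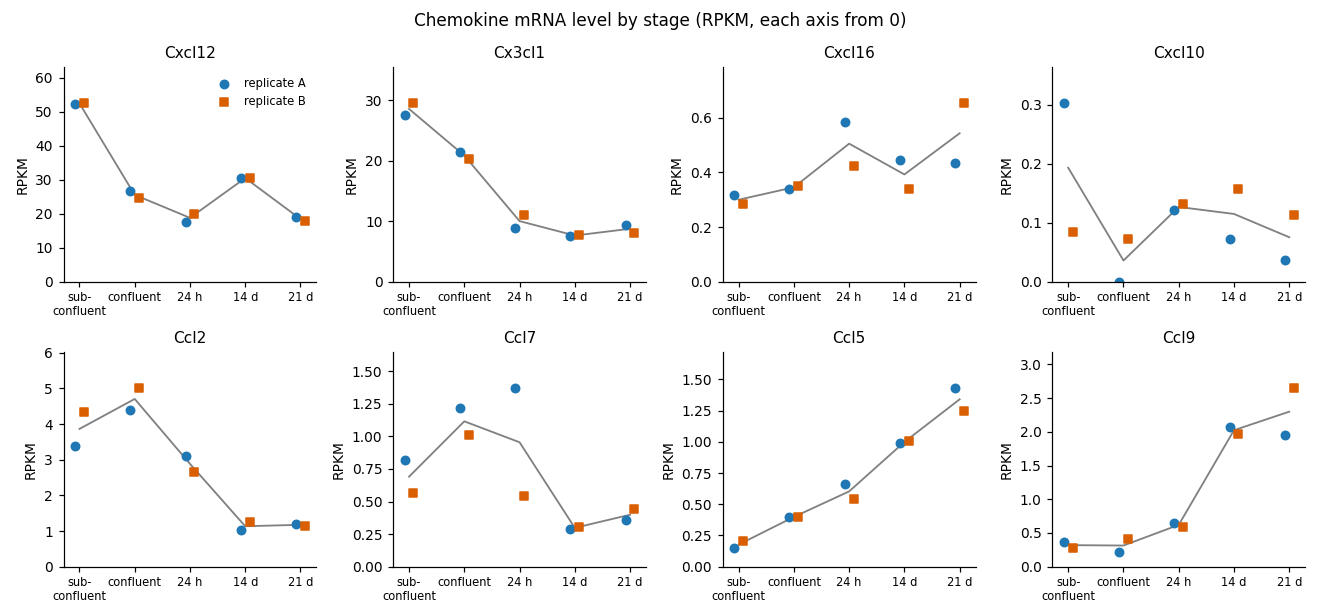
Level in RPKM (y axis, from 0 in each panel) of the 8 chemokines with more than 1 count, by stage (x axis), with a point for each replicate and a grey line through the means (n = 2). Cxcl12 and Cx3cl1 were highest in subconfluent cells (means of 52.4 and 28.5 RPKM), Ccl2 and Ccl7 in confluent cells (4.71 and 1.11 RPKM), and Ccl5 and Ccl9 at 21 d (1.34 and 2.30 RPKM).

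Cxcl12 encodes the constitutive ligand of Cxcr4 and of the atypical receptor Ackr3. Its replicates A and B were at 52.4 and 52.5 RPKM in subconfluent cells, 26.6 and 24.5 RPKM in confluent cells and 17.6 and 20.0 RPKM at 24 h. They were at 30.4 and 30.6 RPKM at 14 d and at 19.0 and 17.9 RPKM at 21 d. Both subconfluent samples lay above all others, and the samples of 14 d lay above those of confluent cells, 24 h and 21 d, so the level did not move in one direction. In order of the means the stages were subconfluent, 14 d, confluent, 24 h and 21 d, and only the replicates of 24 h and 21 d overlapped between neighbours. From subconfluent to confluent cells, both in growth medium, Cxcl12 fell by 1.06 on the log2 scale (SE 0.09, adjusted p = 0.0017). From subconfluent cells to 21 d it fell by 1.39 (SE 0.09, adjusted p = 2e-05). The later level was higher at 14 d than at 24 h by a log2 fold change of 0.83 (SE 0.09, adjusted p = 0.0013) and lower at 21 d than at 14 d by one of -0.80 (SE 0.09, adjusted p = 0.0016), both under 2-fold. In 14 d against confluent cells the log2 fold change was 0.47 (adjusted p = 0.0055), but scaled by library size alone it was 0.24 (adjusted p = 0.16), and with only 24 h and 14 d compared the difference between these stages was 0.79 (adjusted p = 0.11). The fall to confluence and the difference between 14 d and 21 d are both between stages that share an index pair.

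Cx3cl1 encodes fractalkine, a chemokine on a membrane stalk that binds Cx3cr1 and can be released by cutting. The replicates were at 27.6 and 29.5 RPKM in subconfluent cells, 21.4 and 20.3 RPKM in confluent cells and 8.95 and 11.1 RPKM at 24 h. At 14 d they were at 7.49 and 7.79 RPKM and at 21 d at 9.40 and 8.12 RPKM. All samples from 24 h on lay below the confluent samples, which in turn lay below the subconfluent ones, and the replicates of 24 h and 21 d overlapped. Cx3cl1 fell by 1.59 on the log2 scale from subconfluent cells to 21 d (SE 0.11, adjusted p = 3e-05) and by 1.23 from confluent cells to 14 d (SE 0.11, adjusted p = 0.00029). In 24 h against confluent cells, which share an index pair, the log2 fold change was -0.97 (SE 0.11, adjusted p = 0.0047), just under 2-fold. With only these 2 stages fitted the adjusted p-value was 0.23, and no gene of 19562 passed, the lowest adjusted p-value being 0.074. The ratio of Cxcl12 to Cx3cl1 RPKM was 1.84 ± 0.0890 (SD, n = 2) in subconfluent cells, 1.22 ± 0.0236 in confluent cells, 1.89 ± 0.116 at 24 h, 3.99 ± 0.0989 at 14 d and 2.11 ± 0.127 at 21 d. Cxcl12 was thus the more abundant of the pair in all 10 samples, by most at 14 d.

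Ccl2 and Ccl7, neighbouring genes whose proteins attract monocytes through Ccr2, were highest before or early in osteogenic culture. Ccl2 was at 3.39 and 4.34 RPKM in subconfluent cells, 4.40 and 5.01 RPKM in confluent cells and 3.10 and 2.67 RPKM at 24 h. It was at 1.02 and 1.25 RPKM at 14 d and 1.21 and 1.14 RPKM at 21 d. The samples of 14 d and 21 d overlapped each other and lay below all of the earlier ones. Ccl2 fell by 1.84 on the log2 scale from confluent cells to 14 d (SE 0.22, adjusted p = 0.00096), by 1.23 from 24 h to 14 d (SE 0.21, adjusted p = 0.01) and by 1.60 from subconfluent cells to 21 d (SE 0.22, adjusted p = 0.00071). The call in 14 d against 24 h was lost with only these 2 stages fitted (-1.26, adjusted p = 0.14) and without 14 d replicate A (-1.06, adjusted p = 0.084). Between stages that share an index pair no difference of Ccl2 passed, with log2 fold changes of 0.26 (adjusted p = 0.6) to confluence, -0.61 (adjusted p = 0.14) to 24 h and -0.02 (adjusted p = 0.99) from 14 d to 21 d.

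Ccl7 was at 0.815 and 0.566 RPKM in subconfluent cells, 1.22 and 1.01 RPKM in confluent cells and 1.37 and 0.539 RPKM at 24 h. It was at 0.292 and 0.304 RPKM at 14 d, from 21 and 8 counts, and at 0.358 and 0.439 RPKM at 21 d. The late samples lay below the earlier ones, and the replicates at 24 h were wide enough to overlap both earlier stages. Ccl7 fell by 1.68 on the log2 scale from confluent cells to 14 d (SE 0.50, adjusted p = 0.04). The adjusted p-value rose to 0.059 to 0.18 when any 1 of the 8 samples other than those of 24 h was left out. For 21 d against subconfluent cells the log2 fold change was -0.68 (SE 0.49, adjusted p = 0.29), and the F test over the 5 stages gave Ccl7 an adjusted p of 0.077. The ratio of Ccl2 to Ccl7 RPKM was between 2.26 and 7.68 in the 10 samples.

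Ccl5 and Ccl9, the other CC pair on chromosome 11, were lowest in the cells in which Ccl2 was high. Ccl5, known as RANTES, attracts T cells and monocytes. It was at 0.152 and 0.202 RPKM in subconfluent cells, 0.400 and 0.397 RPKM in confluent cells, 0.664 and 0.542 RPKM at 24 h, 0.987 and 1.01 RPKM at 14 d and 1.43 and 1.25 RPKM at 21 d. The replicates of no stage overlapped those of the next, and each stage lay above the one before it. The subconfluent values rest on 15 and 6 counts. Ccl5 rose by a log2 fold change of 3.06 from subconfluent cells to 21 d (SE 0.30, adjusted p = 0.00015) and of 1.54 from confluent cells to 14 d (SE 0.28, adjusted p = 0.0057). With limma-trend on log2(RPKM + 1), which compresses low levels, these were 0.99 and 0.52. No single step passed, and the step to confluence, 1.17 (SE 0.30), had an adjusted p of 0.094. That step passed without the 24 h samples, and without either of them alone.

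Ccl9 is a ligand of Ccr1, a receptor found on monocytes and osteoclast precursors. Its level was 0.364 and 0.276 RPKM in subconfluent cells, 0.223 and 0.405 RPKM in confluent cells and 0.650 and 0.591 RPKM at 24 h, and then 2.08 and 1.97 RPKM at 14 d and 1.95 and 2.65 RPKM at 21 d. Subconfluent and confluent samples overlapped, as did those of 14 d and 21 d, and the samples of 24 h lay between both sets. Ccl9 rose by 1.83 on the log2 scale from 24 h to 14 d (SE 0.31, adjusted p = 0.0089), by 2.87 from confluent cells to 14 d (SE 0.32, adjusted p = 0.00075) and by 2.95 from subconfluent cells to 21 d (SE 0.32, adjusted p = 0.00025). Without 14 d replicate A or B the step from 24 h had an adjusted p of 0.055 and 0.057. In 24 h against confluent cells, on the same index pair, the log2 fold change was 1.05 (SE 0.31, adjusted p = 0.1), and DESeq2 called it. Ccl6 and Ccl3, the next CC genes beyond Ccl9 on chromosome 11, did not exceed 0.1 RPKM in any sample.

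The makeup of the CC mRNA differed between the stages. Ccl2, Ccl7, Ccl5 and Ccl9 summed to 5.06 ± 0.470 RPKM (SD, n = 2) in subconfluent cells, 6.53 ± 0.413 RPKM in confluent cells, 5.06 ± 1.01 RPKM at 24 h, 4.46 ± 0.119 RPKM at 14 d and 5.22 ± 0.386 RPKM at 21 d. Both confluent samples (6.24 and 6.82 RPKM) lay above all others in this sum. Ccl2 and Ccl7 held 90.1 ± 1.45% of that sum in subconfluent cells, 89.1 ± 1.26% in confluent cells, 75.6 ± 2.37% at 24 h, 32.1 ± 3.07% at 14 d and 30.3 ± 2.00% at 21 d. The ratio of Ccl2 to Ccl5 RPKM went from 21.9 ± 0.576 in subconfluent cells through 11.8 ± 1.15, 4.80 ± 0.189 and 1.13 ± 0.146 to 0.878 ± 0.0496 at 21 d. The ratio of Ccl2 to Ccl9 RPKM was 12.5 ± 4.55 in the subconfluent samples and 0.526 ± 0.134 in those of 21 d. These shares and ratios are descriptions without a test. Across the 10 samples the Pearson correlation of log2 CPM was -0.96 between Ccl2 and Ccl9, 0.90 between Ccl5 and Ccl9 and 0.81 between Ccl2 and Ccl7. It was -0.84 between Ccl2 and Ccl5, -0.72 between Ccl7 and Ccl9 and -0.53 between Ccl5 and Ccl7. With Cx3cl1, on another chromosome, it was 0.81 for Ccl2 and -0.93 for Ccl5. The 10 points are pairs of replicates of 5 stages and share libraries, so no p-value is given. In such bulk samples a change in the share of cells that make a transcript and a change in transcript per cell cannot be told apart.

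**Figure D2:**
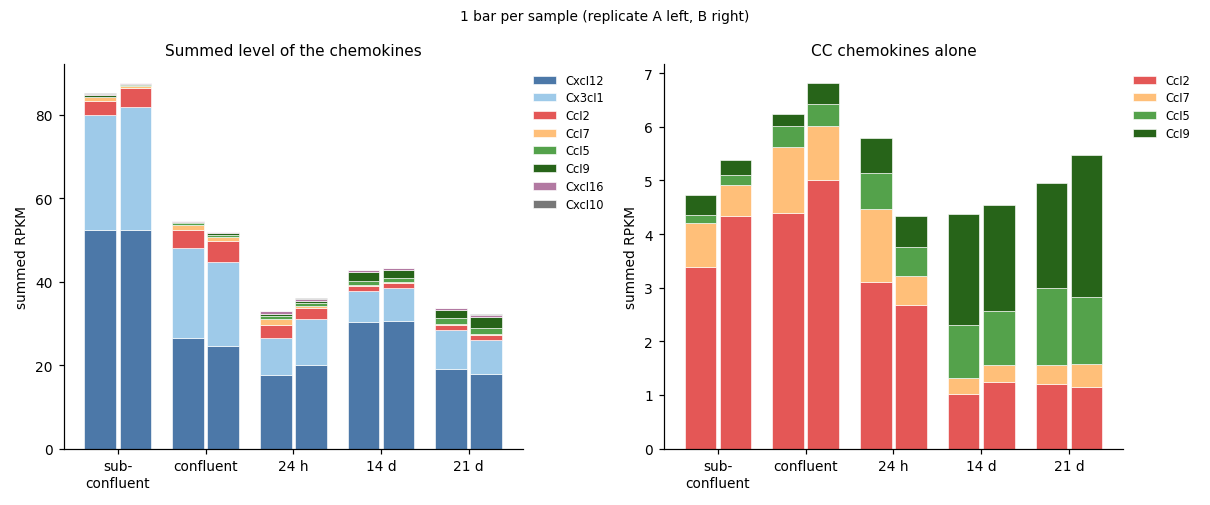
Summed RPKM (y axis, from 0) of the chemokines in each of the 10 samples (bars, replicate A left and B right of each stage), for the 8 chemokines with more than 1 count on the left and the 4 CC chemokines on the right. On the left the mean sum was 86.5 RPKM for subconfluent samples and 33.0 RPKM for 21 d, on the right it was 5.06 and 5.22 RPKM, with the part of Ccl2 and Ccl7 smaller at 14 d and 21 d.

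Cxcl16 encodes a membrane-bound chemokine for Cxcr6. It was at 0.317 and 0.283 RPKM in subconfluent cells, 0.340 and 0.351 RPKM in confluent cells, 0.586 and 0.424 RPKM at 24 h, 0.447 and 0.338 RPKM at 14 d and 0.433 and 0.653 RPKM at 21 d. The samples ranged from 0.283 to 0.653 RPKM, and neighbours in the order of stage means overlapped except confluent and subconfluent cells. Both samples of 21 d lay above both subconfluent samples. Between subconfluent cells and 21 d the log2 fold change was 0.97 (SE 0.31, adjusted p = 0.034), under 2-fold. Over 22 alternatives it ranged from 0.24 to 1.23 with adjusted p-values of 0.016 to 0.22, and it passed both limits in 3 of them, with upper-quartile factors (1.10), with at least 10 counts in every sample (1.04) and without 21 d replicate A (1.23). Without 21 d replicate B it was 0.63 (adjusted p = 0.22). The F test over the 5 stages gave an adjusted p of 0.11.

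The inflammatory CXC genes were at or near 0. Cxcl1 and Cxcl5, whose proteins attract neutrophils through Cxcr2, had 0 counts in all 10 samples and 1 count in 24 h replicate B, respectively. A count of 0 allows up to 3 counts per library, which for Cxcl1 is 0.0293 to 0.102 RPKM depending on depth, and this limit covers counting error only. Cxcl10, an interferon-induced ligand of Cxcr3, had 24 and 2 counts in subconfluent cells, 0 and 6 in confluent cells, 8 and 8 at 24 h, 5 and 4 at 14 d and 1 and 7 at 21 d. In RPKM these were 0.303 and 0.0839, 0 and 0.0722, 0.122 and 0.132, 0.0722 and 0.158, and 0.0372 and 0.114. The replicates of every stage overlapped those of the stage next in order, and Cxcl10 did not pass the filter for testing. Reads in the 133 exon bases that Cxcl10 shares with Art3 cannot be assigned to either gene, so these few counts are uncertain. Of 14 interferon-induced genes, listed with earlier results of these data known, 7 rose and 0 fell in 21 d against 14 d. Of all genes tested, 1.52% rose and 2.45% fell. The median log2 fold change was -0.03 for all genes and 1.81 for the 14 listed. Among them Irf7 was at 0.698 and 0.700 RPKM at 14 d and at 2.68 and 3.56 RPKM at 21 d, and Ifit1 at 0.293 and 0.263 RPKM and then at 1.58 and 1.86 RPKM. At the same step the counts of Cxcl10 overlapped.

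Over the 5 stages, 5 of the 7 chemokines tested differed by the F test at an adjusted p under 0.05, against 48.9% of all genes. These were Cx3cl1 (5.6e-05), Cxcl12 (5.7e-05), Ccl9 (0.00035), Ccl5 (0.0007) and Ccl2 (0.00077). In confluent against subconfluent cells 1 of the 7 fell (Cxcl12) and 0 rose, where 0.423% of all genes tested fell and 1.0% rose. In 24 h against confluent cells edgeR called 0 in either direction, where 1.76% of all genes rose and 0.365% fell. At an unadjusted p under 0.05 there were 5 (Ccl2, Ccl5, Ccl9, Cx3cl1 and Cxcl12), and DESeq2 called 1 (Ccl9). In 14 d against 24 h Ccl9 rose and Ccl2 fell, beside 4.47% of all genes higher and 1.51% lower.

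In 21 d against 14 d edgeR and DESeq2 called 0 of the 7, beside 1.52% of all genes higher and 2.45% lower, and at an unadjusted p under 0.05 there was 1 (Cxcl12). In 14 d against confluent cells 2 rose (Ccl5 and Ccl9) and 3 fell (Ccl2, Ccl7 and Cx3cl1), beside 9.15% of all genes higher and 3.85% lower. In 21 d against subconfluent cells 2 rose (Ccl5 and Ccl9) and 3 fell (Ccl2, Cx3cl1 and Cxcl12), beside 16.3% higher and 11.3% lower. The comparisons share samples and are not independent of each other. In these fits, every call except the fall of Cxcl12 to confluence was in a comparison that crosses the index pairs.

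**Figure D3:**
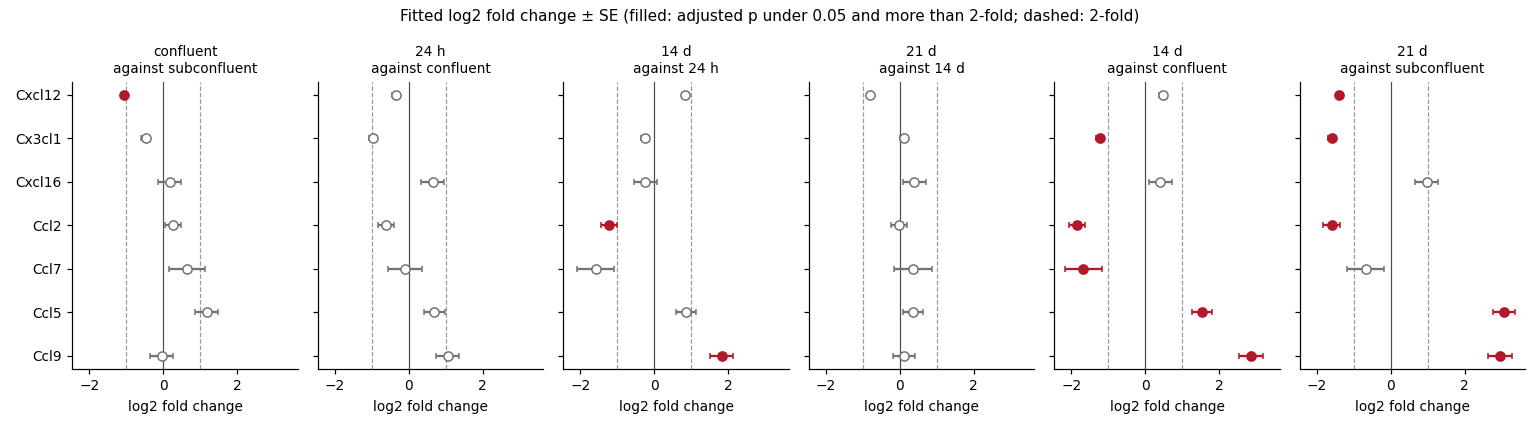
Log2 fold change (x axis) with its SE (bars) of the 7 chemokines tested (y axis), 1 panel for each of the 6 comparisons, with filled red points for an adjusted p under 0.05 and over 2-fold (dashed lines). From subconfluent cells to 21 d Ccl5 (3.06) and Ccl9 (2.95) lie on the right and Ccl2 (-1.60), Cx3cl1 (-1.59) and Cxcl12 (-1.39) on the left, and between 14 d and 21 d no point is filled.

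The mRNA of the receptors was compared with that of their ligands. Of 18 conventional chemokine receptors 13 stayed under 0.1 RPKM in all samples, including Ccr1, the receptor of Ccl5 and Ccl9, with 0 counts in all samples, Ccr2, the receptor of Ccl2 and Ccl7, with 1 count in 1 sample, and Cx3cr1, with at most 1 count per sample. Of the 6 tested, 1 rose from subconfluent cells to 21 d (Ccr10, from 0.197 and 0.131 RPKM to 1.62 and 1.65 RPKM, adjusted p = 0.00081) and 1 fell (Cxcr4), where 16.3% of all genes tested rose and 11.3% fell. Cxcr4 was at 0.317 and 0.411 RPKM in subconfluent cells, 0.130 and 0.149 RPKM in confluent cells, 0.0586 and 0.0350 RPKM at 24 h, 0.0185 and 0.0671 RPKM at 14 d and 0.0316 and 0.0138 RPKM at 21 d. The last are 2 counts in each sample, so no fold is given for the fall (adjusted p = 0.003). Cxcr6, the receptor of Cxcl16, was at 1.17 and 0.802 RPKM in the subconfluent samples and at 0 and 0.258 RPKM in those of 21 d, a difference that did not pass (adjusted p = 0.11). Cxcl12 and Cxcr4 thus had their highest level at the same stage, and from 24 h on the Cxcr4 counts (at most 9 per sample) were too few to follow its course.

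Of the 5 atypical receptors 3 were tested, and all 3 rose in 21 d against subconfluent cells, beside 16.3% of all genes, and in 14 d against confluent cells, beside 9.15%, under each of the 4 scalings run. Ackr3, which takes up Cxcl12, was at 0.670 and 0.839 RPKM in subconfluent cells, 0.747 and 0.579 RPKM in confluent cells, 0.503 and 0.458 RPKM at 24 h, 1.22 and 1.59 RPKM at 14 d and 1.82 and 2.01 RPKM at 21 d (log2 fold change 1.46 from subconfluent cells to 21 d, SE 0.23, adjusted p = 0.0014). Ackr4, a scavenger of Ccl19 and Ccl25, was at 7.49 and 6.90 RPKM in the subconfluent samples and 25.4 and 27.3 RPKM in those of 21 d (1.99, SE 0.10, adjusted p = 9e-06). Exons of Ackr4 share 479 of 5380 bases with Acad11 on the opposite strand. Ccrl2, which presents chemerin, rose by 3.13 (SE 0.61, adjusted p = 0.0041) from 14 and 1 counts to 32 and 54 counts.

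**Figure D4:**
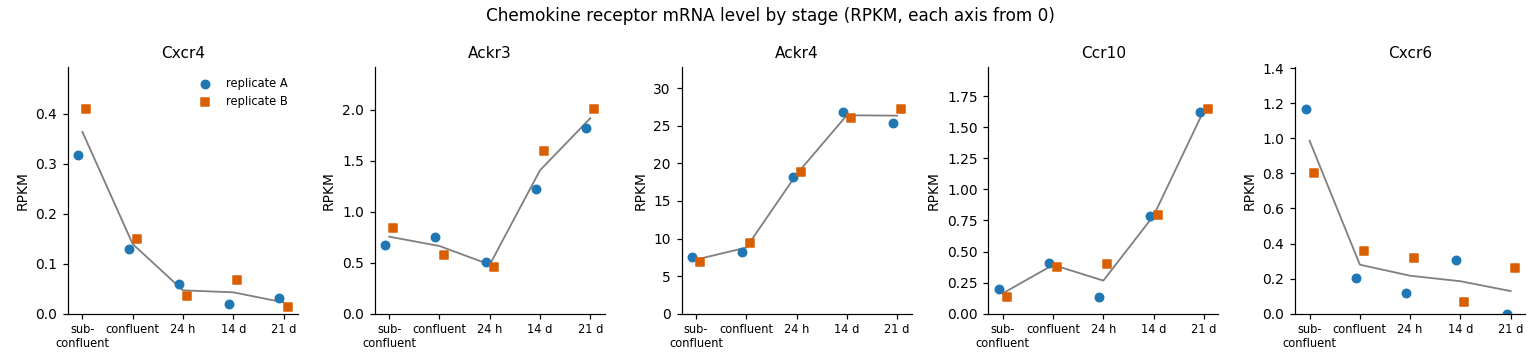
Level in RPKM (y axis, from 0 in each panel) of 5 chemokine receptor genes by stage (x axis), with a point for each replicate and a grey line through the means (n = 2). Cxcr4 was highest in subconfluent cells (0.317 and 0.411 RPKM), and Ackr3 (1.82 and 2.01 RPKM) and Ccr10 (1.62 and 1.65 RPKM) at 21 d.

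Among 27 other chemokine ligands, 20 stayed under 0.1 RPKM in all samples and 7 were tested. Of all 37 ligands, 8 reached 1 RPKM in both replicates of some stage, namely Ccl2, Ccl5, Ccl7, Ccl9, Cxcl12 and Cx3cl1 from the 10 described here and Ccl25 and Ccl27a from the others. Exons of Ccl25 share 204 of 7445 bases with Elavl1 on the opposite strand, with mean counts of 177.9 and 5385.2. Reads there cannot be assigned to either gene, so the level of Ccl25 (1.13 RPKM in both confluent samples) is uncertain. From subconfluent cells to 21 d, 3 of the 7 rose and 1 fell, beside 16.3% of all genes higher and 11.3% lower. Ccl27a was at 0.366 and 0.417 RPKM in the subconfluent samples and 1.64 and 2.37 RPKM in those of 21 d (2.48, SE 0.31, adjusted p = 0.00044), and Ccl28 at 0.0780 and 0.121 RPKM and then 0.230 and 0.214 RPKM (1.30, SE 0.31, adjusted p = 0.011). Both encode ligands of Ccr10. Ccl19, at 0 counts in both subconfluent samples and 0.364 and 0.362 RPKM at 21 d, was at least 4.98-fold higher (against 3 counts per library, adjusted p = 0.00071). Ccl19 and Ccl27a have near-identical copies in the mouse genome, which makes their counts uncertain. Exons of Ccl27a also share 8 of 2377 bases with Il11ra1 on the opposite strand, with mean counts of 140.3 and 10870.9. Ccl17, which lies near Cx3cl1 on chromosome 8, fell as well (adjusted p = 0.001), from 40 and 12 counts to 1 count in each sample.

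The genes whose course was most like that of the 3 most abundant chemokines were found by the Pearson correlation of log2 CPM over the 10 samples among the 12081 genes that averaged 5 CPM or more. For Cxcl12 these were Klf10 (0.978), Fam129b (0.958) and Vdr (0.953), the vitamin D receptor gene. Klf10 had stage means of 6.60, 2.52, 1.47, 2.56 and 1.49 RPKM, with the same lower, then higher, then lower course from 24 h on. For Cx3cl1 they were Tmem64 (0.991), Gm27194 (0.988) and Trmt10a (0.985), and for Ccl2 Mta3 (0.987), Prmt6 (0.983) and Plpbp (0.983). These are the highest of many correlations over few samples and are given as descriptions.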

How the data were processed

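Total RNA of 10 samples was sequenced in paired ends. TopHat2 2.0.9, FastQC and R 3.0.1 with build mm10 are named in the submitters' processing notes; the counting tool, annotation and strand setting are not given in the sources used here. The authors deposited whole-number counts per gene and RPKM values, which scale each count to gene length and to 31000000 to 108000000 reads per sample. The summed counts were 1.44 to 1.60 times these read numbers. The deposited RPKM table breaks off in its last row, which leaves 40602 genes. 14 d A and 21 d B were run in 2 lanes, and the merged column was used. A symbol was found for 39547 of 40620 identifiers in a table of Ensembl gene names, and positions are from GENCODE vM21.

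Counts were fitted in edgeR 4.0.16 (R 4.3.3) over all 10 samples with filterByExpr, TMM and stage as the only factor, followed by 6 comparisons and an F test with Benjamini-Hochberg adjustment over 20808 genes. SE was derived from the log2 fold change and F. log2 CPM used a prior count of 2. The script was tested on simulated data. Alternatives were other scalings, other filters, limma-trend 3.58.1 on log2(RPKM + 1) and log2(RPKM + 0.1), DESeq2 1.42.0, the sum of the lanes, no 24 h samples, only the 2 groups compared, a replicate block, other thresholds and each replicate left out. Named genes are the 10 chemokines, per list up to 4 genes of highest mean RPKM or called in a comparison described, and the 3 genes most correlated with each of the 3 most abundant chemokines. Ccr1, Ccr2, Cx3cr1, Ccl3, Ccl6, Ptprc, Cd3e and Adgre1 were named after their values were seen. The chemokines and lists were chosen with earlier results of these data known.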

Additional observations from a re-analysis of the deposited data

How the results depend on the processing

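Among 18 fold changes of chemokines with an adjusted p under 0.05, 364 of 389 values under the alternatives stayed on that side, 25 did not, and 0 changed direction. The count of chemokines called varied as follows. In confluent against subconfluent cells it was 1, and 2 without the 24 h samples (Ccl5 added), 1 to 2 with each replicate left out (2 without 24 h A or B) and 0 at more than 4-fold. In 24 h against confluent cells it was 0, and 1 with library size alone (Cx3cl1), limma-trend on log2(RPKM + 0.1) (Cx3cl1), DESeq2 (Ccl9) or any fold change, and 0 to 2 with each replicate left out (2 without 24 h B, 1 without confluent B). In 14 d against 24 h it was 2, and 3 with library size alone (Ccl7 added) or any fold change (Cxcl12 added), 1 with only these groups (Ccl9), 0 with limma-trend on log2(RPKM + 1), 0 at more than 4-fold and 0 to 3 with each replicate left out (0 without 14 d A, 1 without 14 d B, 3 without 24 h A or B). In 21 d against 14 d it was 0, and 1 with any fold change (Cxcl12). In 14 d against confluent cells it was 5, and 3 with at least 10 counts in every sample, where Ccl5 and Ccl7 were not tested, 3 with limma-trend on log2(RPKM + 1), 1 at more than 4-fold and 4 to 5 with each replicate left out (4 without any 1 of the 8 samples other than 24 h). Between subconfluent cells and 21 d it was 5, and 6 with upper-quartile factors or any fold change (Cxcl16 added), 5 with at least 10 counts in every sample (Cxcl16 added, Ccl5 not tested), 4 with limma-trend on log2(RPKM + 1) (Ccl5 lost), 2 above 4-fold and 5 to 6 with each replicate left out (6 without 21 d A). The causes were not tested.

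The correlation of A minus B between stages was -0.33 to 0.32 and above 0.1 for 2 of 10 pairs. No regular pairing by the letters A and B was seen, but such values cannot exclude a pairing. Each letter kept its own index sequence in the stages up to 24 h and another at 14 d and 21 d. With the replicate block 5 chemokines were called in 21 d against subconfluent cells and 5 in 14 d against confluent cells, and Cxcl16 lost its adjusted p under 0.05 (0.99, adjusted p = 0.051). With library size alone the median of all genes in 14 d against confluent cells was -0.20 in place of 0.03. By counts without length, Ccl9 ranked 3 and Ccl2 4 among the 10 chemokines.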

Other observations

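NF-kB drives many inflammatory chemokine genes, and its subunits, inhibitors and targets were measured beside them. Of 17 such genes 2 rose and 2 fell in 21 d against subconfluent cells, where 16.3% of all genes rose and 11.3% fell, and 2 rose under each scaling, while 3 fell with library size alone or DESeq2 size factors and 1 with upper-quartile factors. Rela, the main activating subunit gene, was at 41.7 and 42.7 RPKM in subconfluent cells and 41.7 and 38.8 RPKM at 21 d (log2 fold change 0.05, SE 0.07, adjusted p = 0.61). Icam1, an adhesion receptor for leukocytes, rose from 6 and 5 counts to 103 and 226 counts (5.00, SE 0.47, adjusted p = 0.00012), and Tnip1, an inhibitor of NF-kB signalling, rose from 12.1 and 11.3 RPKM to 65.3 and 65.5 RPKM (2.60, SE 0.08, adjusted p = 2.5e-06). Vcam1 fell by 1.04 (SE 0.10, adjusted p = 0.00014), and Rel fell by 2.31 (SE 0.71, adjusted p = 0.029). Csf1, the growth factor of macrophages and osteoclast precursors, followed another course. It was at 199 and 206 RPKM in subconfluent cells, 85.5 and 73.4 RPKM in confluent cells, 61.7 and 62.6 RPKM at 14 d and 152 and 138 RPKM at 21 d. It fell by 1.37 from subconfluent to confluent cells (SE 0.12, adjusted p = 0.0024) and rose by 1.15 from 14 d to 21 d (SE 0.12, adjusted p = 0.0016), both within an index pair.

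Of 8 enzymes that can cut chemokines 6 were tested and 1 rose in 21 d against subconfluent cells, a share close to the 16.3% over all genes. This was Mmp13, a collagenase of late osteoblasts, which rose from 9.73 and 8.59 RPKM to 83.8 and 98.1 RPKM (3.43, SE 0.15, adjusted p = 5.5e-06). Mmp2 was at 445 and 439 RPKM and then 554 and 523 RPKM, and Adam10, which can release Cx3cl1 from the membrane, was at 30.7 and 28.9 RPKM and then 23.2 and 22.8 RPKM (-0.26, SE 0.16, adjusted p = 0.21). Of the 7 adipocyte markers 4 were tested, and 1 rose (Fabp4) and 1 fell (Pparg) between subconfluent cells and 21 d. Of all genes, 16.3% were higher and 11.3% lower. Both calls rest on few counts, Fabp4 from 1 in each sample to 9 and 10, and Pparg from 29 and 12 to 3 and 8. All 7 adipocyte markers together summed to 1.51 to 1.81 RPKM at 24 h and to 0.316 to 0.544 RPKM in the samples of the other stages.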
